A study of Mus musculus with 8 samples.

Results

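Of the 8 mouse mammary tumors in this series, 3 carried fast skeletal muscle transcripts that the other 5 lacked or, for most of these genes, held at a far lower level. Tumors 1, 3 and 6 were chosen by measured expression, as the 3 with the highest mean log2(TPM + 1) of Acta1, Ckm, Mylpf, Tnnt3 and Myh4, and were set against tumors 2, 4, 5, 7 and 8. TPM is relative transcript abundance, corrected for transcript length and scaled to 1 fixed total in each tumor. The marker score was 5.64 in tumor 1, 3.26 in tumor 3 and 5.78 in tumor 6, against 0.71, 0.61, 0.80, 1.08 and 0.73 in tumors 2, 4, 5, 7 and 8. Tumor 3 was therefore the lowest of the picked tumors, and tumor 7 the highest of those left out. Because measured expression of these same tumors chose the 3, all their differences from the other 5 are given as a description without a test, and the 5 selecting genes are not results.

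All tumors came from parous mice of mixed background that carried Blg-Cre, Brca1f/f and Trp53+/-. Blg-Cre expresses Cre recombinase from the β-lactoglobulin promoter, which is active in mammary epithelium. Tumors 1 to 4 had no further transgene and are called controls. Tumors 5 to 8 were HMMR Tg/Tg: they carried on both Rosa26 alleles a human HMMR coding sequence that Cre switches on, and are called HMMR-Tg. Both genotypes lay on both sides, with 2 of 4 controls and 1 of 4 HMMR-Tg tumors among the muscle-rich ones. The study gives a similar average time from induction to diagnosis for both genotypes, which is no match of single tumors. Each tumor is 1 piece of frozen bulk tissue. The labels do not tie tumors to mice, so p-values for genotype measure only the spread between tumors.

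Skeletal muscle fibers are built from sarcomeres, in which myosin thick filaments pull on actin thin filaments between Z-discs. Calcium released from the sarcoplasmic reticulum binds troponin and permits contraction, and a calcium pump returns it to the store. Fast and slow fibers use different isoforms of the same parts. Among the fast myosin heavy chains, Myh4 marks type IIb fibers, Myh1 type IIx and Myh2 type IIa, whereas Myh7 marks slow fibers. Mouse mammary glands lie under the skin close to muscle of the body wall and the cutaneous layer.

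The columns summed to 994001 to 994984 TPM, and 21522 to 22336 identifiers were above 0 in a tumor. TPM keeps no depth, so sequencing depth is unknown and no counting interval can be given. Epithelial genes matched the tissue label in every tumor, with Epcam, an epithelial adhesion molecule, at 1536, 756 and 1044 TPM in tumors 1, 3 and 6 and between 477 and 1924 TPM in the others. Mouse Hmmr was 9.39, 13.8 and 13.0 TPM in tumors 1, 3 and 6, overlapping the 11.8 to 20.2 TPM of the others. The human transgene has its own sequence and no value of its own among these mouse genes. Whether its reads were counted as mouse Hmmr was not tested.

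Acta1, encoding skeletal α-actin, was 98.6, 9.94 and 123 TPM in tumors 1, 3 and 6. In tumors 2, 4, 5, 7 and 8 it was 0.535, 0.218, 0.685, 0.367 and 0.50 TPM. Tnnt3 (fast troponin T) was 50.97, 11.36 and 67.02 TPM in the muscle-rich tumors and at most 0.99 TPM elsewhere. In both genes tumors 1 and 6 lay on one level and tumor 3 lower, while their distance from the other 5 was set by the choice of tumors. Ckm, the muscle creatine kinase that buffers ATP, was 49.3, 9.66 and 63.6 TPM, with a maximum of 0.606 TPM in the other 5. For Myh4 the values were 22.3, 4.29 and 20.2 TPM against at most 0.0231 TPM. Mylpf, a fast regulatory myosin light chain, was the selecting gene that overlapped: tumor 3 had 9.48 TPM and tumor 7 had 12.04 TPM, while tumors 1 and 6 had 49.96 and 42.7 TPM.

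The 250 bases before the RefSeq transcription start are shown for 3 of these genes and for Tnnc2, the gene with the largest difference outside the rule, so that the promoters of genes that moved together can be read side by side. Positions count back from the start, and sequences are from the GRCm38.p6 build, read 5′ to 3′ on the strand of the gene. Capitals mark the E-box CANNTG, the core bound by basic helix-loop-helix factors such as MyoD, and the CArG box, the core of serum response factor sites. Acta1 (chr8:123894776-123895025, minus strand) held E-boxes at positions -238 and -221 and a CArG box at position -73. Ckm (chr7:19410844-19411093, plus strand) held an E-box at position -249. Myh4 (chr11:67237562-67237811, plus strand) held E-boxes at positions -221 and -67 and a CArG box at position -104. Tnnc2 (chr2:164779735-164779984, minus strand) held E-boxes at positions -183 and -88.
Acta1: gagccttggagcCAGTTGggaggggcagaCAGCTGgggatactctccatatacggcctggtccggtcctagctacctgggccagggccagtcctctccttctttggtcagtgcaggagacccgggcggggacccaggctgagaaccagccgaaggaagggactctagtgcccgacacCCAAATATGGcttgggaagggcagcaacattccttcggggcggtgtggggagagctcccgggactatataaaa
Ckm: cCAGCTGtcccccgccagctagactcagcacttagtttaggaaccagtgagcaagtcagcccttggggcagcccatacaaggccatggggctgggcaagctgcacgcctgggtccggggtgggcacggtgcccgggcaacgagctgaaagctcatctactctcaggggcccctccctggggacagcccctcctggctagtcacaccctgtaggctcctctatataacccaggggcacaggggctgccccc
Myh4: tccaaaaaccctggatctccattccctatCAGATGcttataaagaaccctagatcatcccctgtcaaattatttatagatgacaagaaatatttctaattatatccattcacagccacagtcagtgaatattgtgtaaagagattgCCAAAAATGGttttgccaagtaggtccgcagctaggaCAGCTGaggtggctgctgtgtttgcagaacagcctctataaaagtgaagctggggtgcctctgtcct
Tnnc2: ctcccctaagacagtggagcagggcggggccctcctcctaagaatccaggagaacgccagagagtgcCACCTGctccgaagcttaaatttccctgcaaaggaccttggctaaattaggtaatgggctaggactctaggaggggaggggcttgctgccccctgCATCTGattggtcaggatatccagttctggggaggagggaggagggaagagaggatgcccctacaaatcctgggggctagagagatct

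Both strands were searched. Of the 24 muscle genes that were either selecting genes or called higher below, 16 had a promoter in the table. A muscle gene counted when any of its promoters held a match, whereas the share of all promoters counted each promoter singly. An E-box was present in 14 of these 16, and in 66.2% of all 32841 promoters of the same length. A CArG box was found in 2 of 16, against 1.47% of all promoters. The MEF2 site, an A/T-rich motif of muscle promoters, was found in 5 of 16 and in 2.92% of all, and TATAAA in 4 of 16 and in 12.4% of all. In Myh4 the MEF2 match at position -182 overlapped a TATAAA match on the other strand at position -179. The genes were taken from lists of known muscle genes and include selecting genes. The others were called from values of the same tumors. Their motif shares are therefore a description and no support for the split. A match is only a run of letters in this window and says nothing about binding in these tumors.

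A gene was called higher when each of the 3 muscle-rich tumors lay above each of the other 5 and the difference of mean log2(TPM + 1) was at least 1. By this description 46 of the 14835 genes averaging 1 TPM or more over the 8 tumors were higher (0.31%) and 58 were lower (0.391%). By lack of overlap alone, whatever the size of the difference, 1.07% were higher and 2.29% lower. The 46 included 4 selecting genes, 19 further members of 9 skeletal muscle lists and 23 other genes. Quantile normalization gave 57 higher and 33 lower, and median-of-ratios scaling 55 and 38. A group that loses a tumor separates more easily. Counts were 84 higher and 169 lower without tumor 1, and 108 and 138 without tumor 3. They were 126 and 138 without tumor 5, and 94 and 140 without tumor 6. Without tumor 4, 59 were higher and 113 lower. Not all of the 46 stayed: 36 were still called higher without tumor 1 and 35 without tumor 6, against 43 to 45 without any other tumor. Muscle members called higher besides the selecting genes were 16 without tumor 1 and 12 without tumor 6, against 19. They were 20 to 28 without any other tumor.

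The 9 lists held 151 genes, all of them in the table, and 146 besides the selecting genes. Only 74 of the 146 passed the filter, 26 of them through the muscle-rich tumors alone, so counts are given over all 146. Of these, 37 (25.3%) were higher in all 3 tumors without overlap, none was lower without overlap, and 109 overlapped. Over all 26969 identifiers above 0 in any tumor, 1.13% were higher and 1.71% lower without overlap. Of the 48 members whose mean in the other tumors was already at least 1 TPM, 4 were higher without overlap. In bulk tissue, fewer cells of a type and less RNA per cell cannot be told apart.

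**Figure D1:**
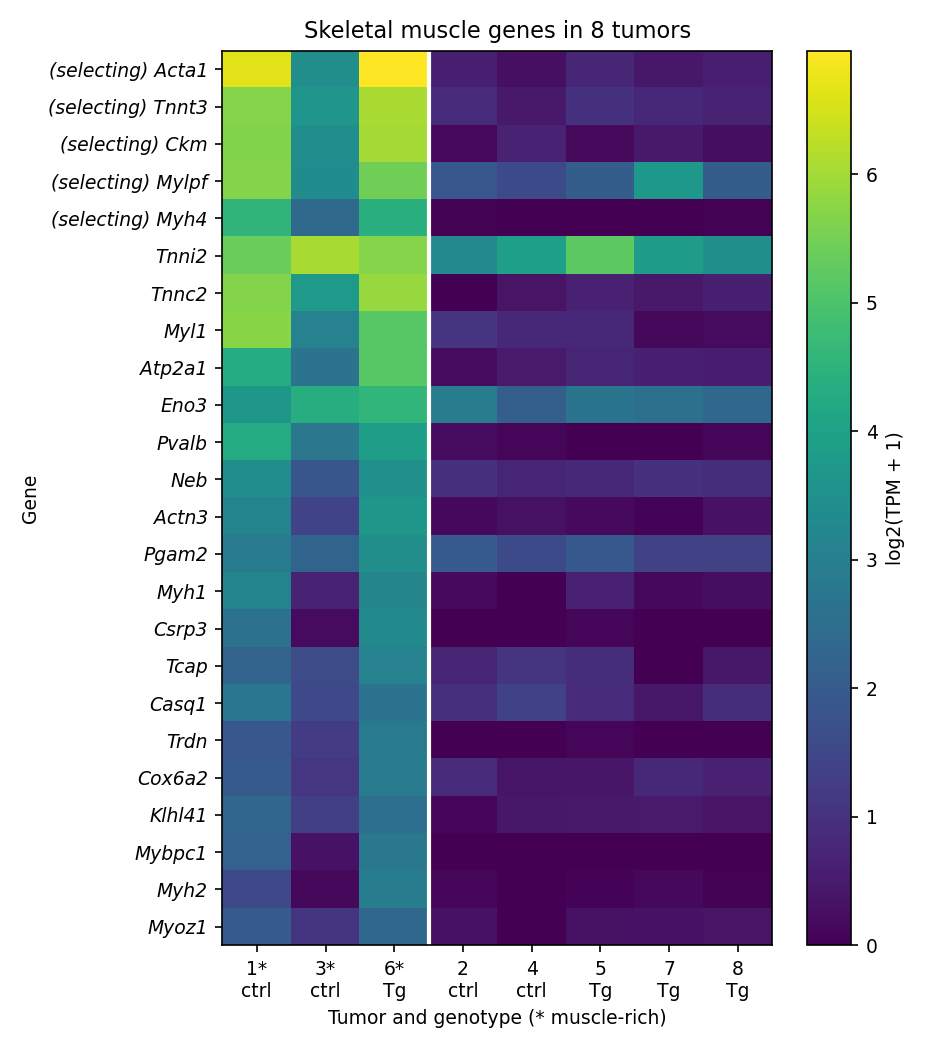
Expression of the 5 selecting genes and the 19 further muscle genes called higher, as log2(TPM + 1) by color, with genes in rows and tumors in columns (asterisks mark tumors 1, 3 and 6; ctrl, control; Tg, HMMR-Tg). Most rows are brightest in tumors 1 and 6, intermediate in tumor 3 and dark in the other 5; Tnni2, Mylpf, Eno3 and Pgam2 are also visible outside the muscle-rich tumors.

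Among thin filament genes, fast troponin C and nebulin followed the selecting genes closely. Tnnc2 (chr2:164602661-164605467, mm9), which encodes fast troponin C, was 50.3, 12.4 and 57.9 TPM in tumors 1, 3 and 6 and 0, 0.283, 0.548, 0.378 and 0.518 TPM in tumors 2, 4, 5, 7 and 8. The difference of means was 4.69 on the log2(TPM + 1) scale, which understates the change of low genes. Neb, the giant ruler protein of the thin filament, was 9.71, 2.62 and 10.2 TPM, above the 0.637 to 0.999 TPM of the other tumors (difference 2.04).

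Fast troponin I was the exception in pattern. Tnni2 was 40.1, 65.8 and 51.02 TPM in tumors 1, 3 and 6 and 8.7, 14.3, 36.02, 13.5 and 10.01 TPM in tumors 2, 4, 5, 7 and 8. Tumor 3 was thus its highest tumor, and tumor 5 nearly reached tumor 1 (difference 1.76). Tnnc1 and Tmod4, a slow troponin C and a filament-capping tropomodulin, also lay above the other tumors without overlap, but with smaller differences of 0.80 and 0.95. Tpm2, a tropomyosin shared with smooth muscle, was 41.8, 24.2 and 158 TPM in the muscle-rich tumors and 9.81 to 64.6 TPM in the others. Its overlap came from tumors 1 and 3, since tumor 6 exceeded all others. The thin filament list, selecting genes included, summed to 186 to 493 TPM in the muscle-rich tumors and 32.4 to 117 TPM in the others.

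The fast myosin heavy chain genes lie next to each other on the plus strand of chromosome 11 in mm9, in the order Myh3 (chr11:66891802-66915793), Myh2 (chr11:66984529-67011019), Myh1 (chr11:67013554-67038078), Myh4 (chr11:67051314-67073948), Myh8 (chr11:67090626-67122136) and Myh13 (chr11:67135160-67185088). The 3 adult limb muscle genes in the middle of this cluster were high in the muscle-rich tumors, and the outer ones were not. Myh1 was 7.86, 0.60 and 8.01 TPM in tumors 1, 3 and 6, and 0.14, 0.0182, 0.551, 0.0998 and 0.195 TPM in tumors 2, 4, 5, 7 and 8. Its value in tumor 3 was only just above that of tumor 5. Myh2 was 1.89, 0.107 and 6.64 TPM, with at most 0.101 TPM in the other tumors, which tumor 3 barely exceeded. The embryonic Myh3, the perinatal Myh8 and the extraocular Myh13 reached no more than 0.144, 0.227 and 0.178 TPM in any of the 8 tumors. These genes are close paralogs, and reads may have been divided among them by estimation.

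Summed over Myh4, Myh1, Myh2 and Myh7, adult myosin heavy chain was 32.1 TPM in tumor 1, 5.11 TPM in tumor 3 and 37.0 TPM in tumor 6, and 0.113 to 0.722 TPM in the others. As a description only, since Myh4 is a selecting gene, it held the largest part in each of the 3, at 69.6%, 84.0% and 54.7% of that sum. Myh1 made up 24.5%, 11.7% and 21.7%. Tumor 6 had the most mixed composition. There Myh2 reached 17.96%, against 5.88% in tumor 1 and 2.10% in tumor 3, and Myh7 reached 5.69%, against 0.0878% and 2.13%.

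**Figure D2:**
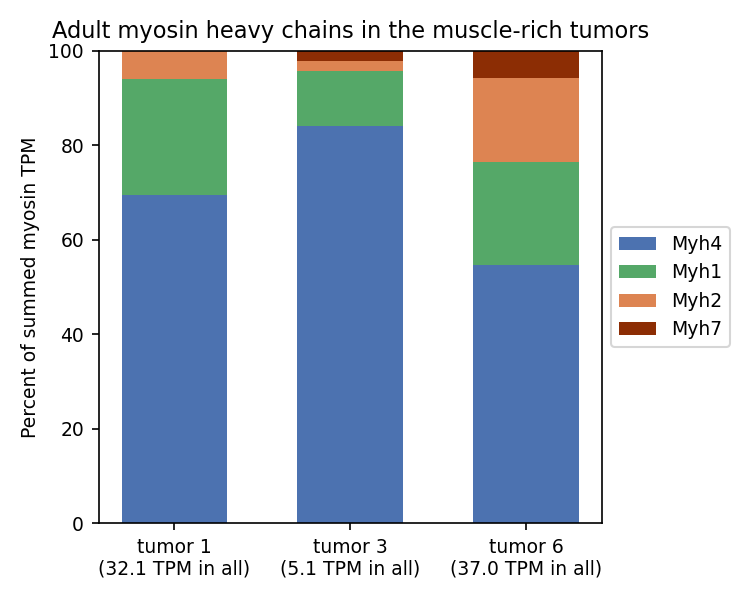
Percent of the summed TPM of 4 adult myosin heavy chain genes in each muscle-rich tumor, 1 bar per tumor with its summed TPM below. Myh4, a selecting gene, is the largest segment in each bar, and the Myh2 and Myh7 segments are widest in tumor 6, at 17.96% and 5.69%.

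Other thick filament genes showed the same tumors on top. Myl1, the fast essential light chain (chr1:66970869-66991978, mm9), was 51.8, 7.54 and 34.3 TPM in tumors 1, 3 and 6 and 1.1, 0.711, 0.732, 0.107 and 0.146 TPM in tumors 2, 4, 5, 7 and 8 (difference 4.06). Mybpc1, the slow-type myosin-binding protein C, was 3.59, 0.27 and 5.85 TPM and was listed at 0 in all 5 others (difference 1.77). Its fast counterpart Mybpc2 was 7.46, 2.66 and 7.59 TPM but overlapped, because tumor 7 had 3.87 TPM. Of all 21 thick filament genes besides the selecting ones, filtered or not, 6 were higher without overlap and 15 overlapped, beside the 1.13% of all identifiers given above.

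Of all 23 Z-disc genes, 8 were higher without overlap and 15 overlapped, beside 1.13% of all identifiers. Actn3, the α-actinin of fast fibers, was 7.89, 1.66 and 11.9 TPM in tumors 1, 3 and 6, against 0.12, 0.241, 0.14, 0.0556 and 0.274 TPM in tumors 2, 4, 5, 7 and 8 (difference 2.53). Csrp3, the muscle LIM protein, was 5.13, 0.16 and 9.13 TPM and at most 0.081 TPM elsewhere. It had the lowest ratio of tumor 3 to tumor 1 among the called genes. Tcap, which caps titin at the Z-disc, was 3.64, 2.02 and 7.41 TPM, against at most 1.05 TPM. Myoz1, a calcineurin-binding Z-disc protein, was 3.04, 1.05 and 4.01 TPM, against at most 0.279 TPM. Klhl41, a kelch protein of the sarcomere, was 3.93, 1.47 and 4.8 TPM, against at most 0.404 TPM. Tumor 3 was the lowest of the 3 for each of these genes, and all of them passed the filter only through the muscle-rich tumors.

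Titin and α-actinin-2 did not separate the tumors. Ttn was 2.81, 0.431 and 2.07 TPM in tumors 1, 3 and 6, while tumor 7 had 2.35 TPM. Actn2 was 2.9, 0.288 and 6.75 TPM, with 1.58 TPM in tumor 7. Pdlim3 was higher in tumor 7 (146 TPM) and tumor 4 (79.2 TPM) than in any muscle-rich tumor (23.5, 6.37 and 26.7 TPM). Tumor 7 thus carried Mylpf, Mybpc2, Ttn, Actn2 and Pdlim3 above tumor 3, while its Acta1, Ckm and Myh4 were at most 0.384 TPM.

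Of all 22 calcium handling and coupling genes, 5 were higher without overlap and 17 overlapped, beside 1.13% of all identifiers higher without overlap. The list sums overlapped as well (43.5 to 134 TPM against 27.9 to 87.6 TPM). Atp2a1, the calcium pump SERCA1 of fast fibers (chr7:133589372-133606622, mm9), was 18.8, 5.27 and 34.6 TPM in tumors 1, 3 and 6 and 0.152, 0.407, 0.662, 0.516 and 0.446 TPM in tumors 2, 4, 5, 7 and 8 (difference 3.53). Pvalb, the soluble calcium buffer parvalbumin of fast fibers, was 18.4, 5.75 and 13.8 TPM, against 0.142, 0.0694, 0, 0 and 0.0712 TPM (difference 3.56). Both genes stayed below 1 TPM in each tumor outside the 3. Trdn (triadin) was 2.7, 1.38 and 6.19 TPM, and it was listed at 0 in all other tumors except tumor 5, with 0.0666 TPM. Casq1, the calcium-storing calsequestrin of the reticulum, was 5.6, 1.92 and 5.26 TPM and at most 1.52 TPM elsewhere. The channels themselves were low: Ryr1 was 0.89, 0.238 and 1.13 TPM and Cacna1s 1.35, 0.164 and 0.568 TPM, and both overlapped the other tumors. Sln, an inhibitor of the pump, was 0.913 and 0.827 TPM in tumors 1 and 6 and listed at 0 in the other 6 tumors, tumor 3 included. Cacna2d1, a calcium channel subunit, Srl (sarcalumenin) and Casq2, the cardiac and slow calsequestrin, had negative differences of -0.95, -0.43 and -0.30 and overlapped.

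Of all 22 energy metabolism genes besides Ckm, 7 were higher without overlap and 15 overlapped, beside 1.13% of all identifiers. Eno3, the muscle enolase, was 11.9, 19.03 and 22.7 TPM in tumors 1, 3 and 6, above 3.32 to 6.72 TPM in the others (difference 1.66). Pgam2, the muscle phosphoglycerate mutase, was 6.15, 3.72 and 9.86 TPM, against 1.55 to 3.0 TPM. Cox6a2, the muscle form of a cytochrome oxidase subunit, was 2.93, 1.13 and 6.2 TPM, against 0.326 to 0.778 TPM (difference 1.35). Enolase and the mutase were above 1 TPM in every tumor.

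Myoglobin and carbonic anhydrase 3 overlapped between the groups. Mb was highest in tumor 2, a tumor without the program, at 52.9 TPM, and was 13.4, 7.61 and 27.9 TPM in the muscle-rich tumors. Car3, which is abundant in slow muscle and in fat, was 26.1, 21.9 and 26.4 TPM in tumors 1, 3 and 6, but tumor 5 also had 22.7 TPM, with at most 1.78 TPM in the remaining 4. After quantile normalization and after median-of-ratios scaling Car3 no longer overlapped and was called higher (differences 3.29 and 3.26). Pygm, the muscle glycogen phosphorylase, was 3.47, 3.37 and 8.25 TPM and overlapped the 1.45 to 5.04 TPM of the others.

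The dystrophin complex, the neuromuscular junction and the regulators of myogenesis had no called member among their 6, 3 and 5 tested genes. Over all genes tested, 0.31% were called higher and 0.391% lower. Of all 13, 10 and 15 genes of these lists, 1, 0 and 2 were higher without overlap, beside 1.13% of all identifiers. Dmd (dystrophin) was 26.03, 2.47 and 14.4 TPM in tumors 1, 3 and 6 and 4.61 to 24.8 TPM in the others, with tumor 3 the lowest of all 8. Chrna1, the acetylcholine receptor subunit of the endplate, was 0.356, 0.122 and 0.361 TPM, against at most 0.197 TPM. The myogenic factors were near or at 0. Myod1 was 0.117, 0 and 0.0928 TPM and listed at 0 in the other 5, and Myog was at most 0.413 TPM. Myf6, the factor of mature fibers, was 0.823 TPM in tumor 1 and 0.676 TPM in tumor 6 and listed at 0 in the rest. Pax7, which marks satellite cells, was listed at 0 in all 8 tumors. Trim63, a ubiquitin ligase of muscle atrophy, was 0.692, 0.404 and 0.606 TPM, above the 0.0435 to 0.185 TPM of the others, but below the filter.

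In all, 16 of the 72 members below the filter lay higher in the 3 tumors without overlap, and none lower. Over all identifiers above 0 in any tumor, 1.13% were higher and 1.71% lower without overlap. Ampd1, the muscle AMP deaminase, was 2.37, 1.31 and 2.06 TPM in tumors 1, 3 and 6, and at most 0.786 TPM in the others. Xirp2, an actin-binding protein of the fiber ends, was 2.54, 0.115 and 1.62 TPM against at most 0.00909 TPM. Ckmt2, the mitochondrial creatine kinase of sarcomeric muscle, was 0.718, 0.126 and 1.84 TPM against at most 0.0834 TPM. These values are low in absolute terms, and tumor 3 came closest to the other tumors in each of them. Cav3, the caveolin of muscle membranes, was 0.711, 0.17 and 0.644 TPM against at most 0.112 TPM. Smyd1, a methyltransferase needed for myosin assembly, was 1.28, 0.236 and 0.914 TPM against at most 0.217 TPM. Mstn (myostatin), the secreted brake on muscle growth, was 0.272, 0.168 and 0.0227 TPM and listed at 0 in the other 5.

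The 3 muscle-rich tumors did not share 1 fixed set of proportions. For the 11 called genes outside the selecting ones whose value in each of the other 5 tumors was at most 10% of that in tumor 1, the ratio of tumor 3 to tumor 1 had a median of 0.210 and ranged from 0.0311 for Csrp3 to 0.511 for Trdn. The ratio of tumor 6 to tumor 1 had a median of 1.51 and ranged from 0.662 for Myl1 to 3.52 for Myh2. Tumor 3 was lowest relative to tumor 1 for Csrp3, Myh2 (0.0569), Mybpc1 (0.0752) and Myh1 (0.0764). It was less far below for Pvalb (0.313). The selecting genes Acta1 and Myh4 had ratios of 0.101 and 0.192. These low values in tumor 3 lie near 0 TPM for Csrp3, Myh2 and Mybpc1, and no replicate of a tumor gives their error. Among the 9 selecting or called genes that were also present elsewhere, the ratio of tumor 3 to tumor 1 ran from 0.190 to 1.64. Of the 19 called members, 15 were highest in tumor 6, 3 in tumor 1 and 1 in tumor 3, and 17 had their lowest muscle-rich value in tumor 3. The marker score that chose the tumors also put tumor 6 highest and tumor 3 lowest of the 3. These counts are therefore a description of that order.

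**Figure D3:**
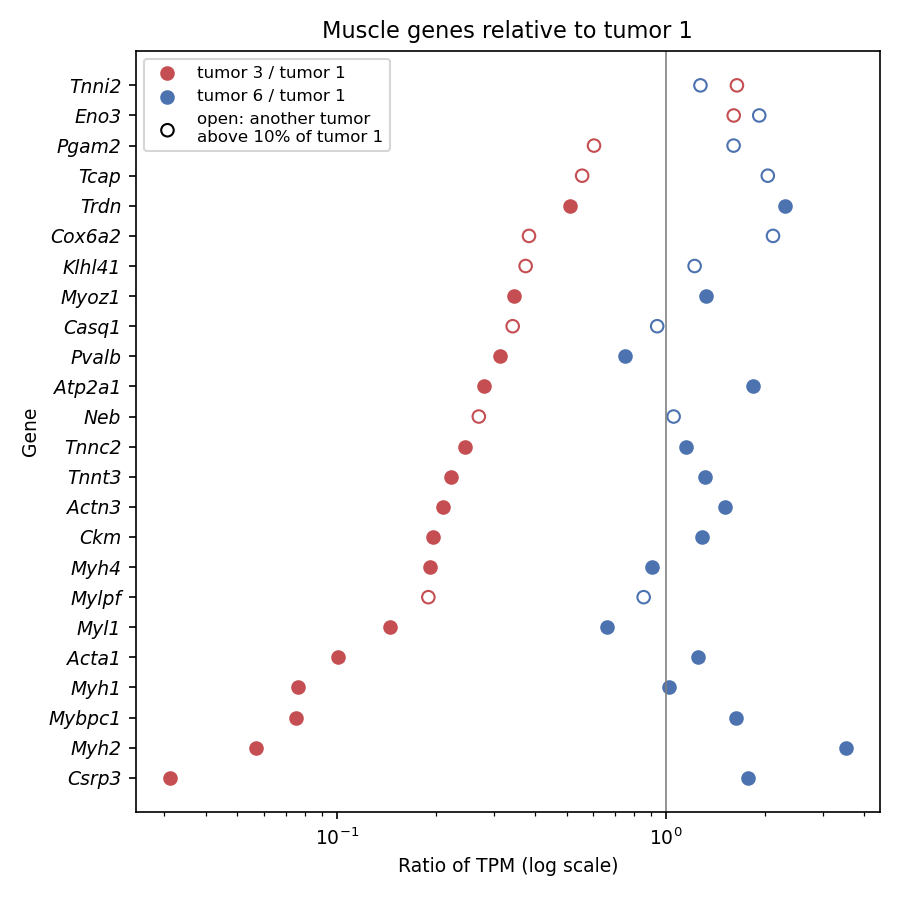
TPM of each of the 24 selecting or called muscle genes in tumor 3 (red) and tumor 6 (blue) divided by that in tumor 1, on a log axis; open circles are the 9 genes for which at least 1 of the other 5 tumors exceeded 10% of tumor 1. The plot includes the selecting genes; filled red points spread from 0.0311 to 0.511, and filled blue points lie around 1, from 0.662 to 3.52.

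A list of 13 fast fiber isoforms, 3 of them selecting genes, summed to 333 TPM in tumor 1, 129 TPM in tumor 3 and 361 TPM in tumor 6. The other tumors had 15.6, 20.2, 44.2, 31.8 and 16.5 TPM (tumors 2, 4, 5, 7 and 8). Tnni2 supplied much of this outside the strongest tumors, and without it the sums were 293, 63.0 and 310 TPM against 5.90 to 18.3 TPM. Even the larger sums were a small part of the RNA. With Tnni2 they made up 0.0335%, 0.0130% and 0.0363% of the TPM of tumors 1, 3 and 6, so muscle-rich is meant relative to the other 5. All genes of the 9 lists together took 0.126%, 0.0607% and 0.144%, against 0.0510% to 0.0686% in the others, and by that measure tumor 3 lay inside the range of the other tumors.

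Slow fiber genes did not share 1 leading tumor: the list of 10 summed to 57.7 TPM in tumor 3, 27.5 TPM in tumor 6 and 23.4 TPM in tumor 2, and to at most 14.2 TPM in the remaining tumors. Of these 10, 2 were higher in the 3 tumors without overlap, 0 were lower and 8 overlapped. Over all identifiers above 0 in any tumor, 1.13% were higher without overlap. The slow fiber genes Myl2, Myh7, Tnnt1 and Ankrd2, not all of them in that list, were highest in tumor 6. Myl2, the slow and ventricular regulatory light chain, was 4.39 TPM in tumor 6 and at most 0.798 TPM in any other tumor. Myh7 was 2.1 TPM there and at most 0.235 TPM elsewhere. Tnnt1, slow troponin T, was 5.74 TPM, with 1.92 TPM as the next value. Ankrd2, a stretch-responsive protein of slow fibers, was 5.88 TPM, with 0.864 TPM in tumor 1 as the next. These 4 overlapped between the groups because tumors 1 and 3 did not share the level of tumor 6.

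Tumor 3 stood apart in a different direction. Tnni1, slow troponin I, was 51.7 TPM in tumor 3, with 6.78 and 5.02 TPM in tumors 1 and 6 and 12.8 TPM as the highest value of the others. Tnnt2, cardiac troponin T, was 403 TPM in tumor 3 and was also high in tumors 5, 6 and 8 (181, 132 and 131 TPM). Tnni3, cardiac troponin I, was 15.03, 7.2 and 5.46 TPM in tumors 1, 3 and 6 and 2.77 to 22.5 TPM elsewhere. The 2 tested developmental isoforms also overlapped: Ncam1, an adhesion molecule of immature and denervated fibers and of nerve, was 42.3, 5.45 and 20.3 TPM in the muscle-rich tumors and 3.88 to 41.04 TPM in the others, and Myl4, the embryonic light chain, was 2.92, 0.447 and 1.74 TPM against 0.301 to 4.27 TPM. Tnni1, Tnnt2 and Tnni3 did not follow the order of Acta1 or Myh4 over the tumors.

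Lists for 15 other cell types and programs were read for company of the muscle genes. None of the 10 tested white adipocyte genes was called, beside 0.31% of all genes tested called higher and 0.391% lower. That list summed to 58.6 to 193 TPM in the muscle-rich tumors and to 51.9 to 211 TPM in the others. Cfd, the adipokine adipsin, was 2.36, 30.3 and 40.7 TPM in tumors 1, 3 and 6 and 3.84, 0.651, 45.7, 0.444 and 1.2 TPM in tumors 2, 4, 5, 7 and 8. Adipoq (adiponectin), named after its values were seen, was 0.49, 5.99 and 3.93 TPM, and 5.63 TPM in tumor 5. Of the 10, 8 had a positive difference, with a median of 0.41, but the sum was 193 and 153 TPM in tumors 3 and 6 and only 58.6 TPM in tumor 1, and tumor 5 had the highest sum of all. Lipe, a fat lipase, was 5.76, 24.4 and 6.14 TPM in tumors 1, 3 and 6 and 6.08 to 14.3 TPM elsewhere, and Fabp4, a fatty acid carrier, 16.7, 93.1 and 59.5 TPM and 33.1 to 101 TPM. Their part in the differences was not tested.

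Brown adipocyte, milk protein, nuclear respiratory chain, Schwann cell and nerve, skin and hair follicle, leukocyte, endothelial, fibroblast, erythroid and epithelial lists had no called member, and their sums overlapped between the groups. The shares called over all genes tested were 0.31% higher and 0.391% lower. Endothelial and fibroblast genes leaned lower: 1 of 12 had a positive difference in each list, with medians of -0.33 and -0.50, beside -0.07 over all genes tested. Postn (periostin), a matrix protein of fibroblasts, was 339, 154 and 323 TPM in tumors 1, 3 and 6 and 255 to 1934 TPM in the others. The epithelial list leaned higher, with 12 of 17 positive and a median of 0.46. Krt8, a luminal keratin, was 556, 1896 and 1063 TPM, and only tumor 3 exceeded the 351 to 1454 TPM of the others.

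Smooth muscle genes leaned lower, with 4 of 14 positive and a median of -0.46. Actg2 and Myh11, the smooth muscle γ-actin and myosin heavy chain, were the called members, both lower. These are 2 of 14, beside 0.391% of all genes tested called lower. A further 1 of 14 was higher without overlap, beside 1.07% of all genes tested. Synm (synemin), an intermediate filament protein named after its values were seen, lay higher without overlap, at 1.39, 2.19 and 2.22 TPM against at most 1.27 TPM. Actg2 was 2.72, 7.87 and 11.5 TPM in tumors 1, 3 and 6 and 12.8, 47.7, 12.7, 16.8 and 15.4 TPM in tumors 2, 4, 5, 7 and 8 (difference -1.38), but it overlapped after quantile normalization and after median-of-ratios scaling. Myh11 was 0.661, 1.14 and 1.15 TPM, against 1.55, 1.33, 1.63, 73.7 and 1.92 TPM (difference -1.37), and tumor 7 made most of that difference. Acta2, the actin shared by smooth muscle and myofibroblasts, overlapped, at 37.3, 51.1 and 122 TPM against 47.3 to 176 TPM.

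Mitosis genes also leaned lower, with 2 of 20 positive and a median difference of -0.35. Mki67, which marks cycling cells, was 30.7, 39.4 and 35.4 TPM in tumors 1, 3 and 6 and 76.7, 50.9, 68.3, 123 and 87.9 TPM in tumors 2, 4, 5, 7 and 8 (difference -1.13), and it was the called member. Birc5 (survivin) was lower without overlap by less, at 119, 94.5 and 81.7 TPM against 142 to 219.7 TPM. Of the 20 mitosis genes, 4 were lower without overlap and 16 overlapped, beside 2.29% of all genes tested lower without overlap. The 1 called gene stands beside 0.391% of all genes tested called lower. Top2a and Pcna overlapped, with differences of 0.02 and -0.06. Immediate-early genes, which respond quickly to stimulation, had 1 of 24 positive and a median of -0.69, with none called. Fos was 95.5, 26.3 and 141 TPM in tumors 1, 3 and 6 and 31.5 to 532 TPM in the others. Mitochondrially encoded genes were highest in tumor 1, with a list score of 12.6, and were not called. The part of these programs in the muscle differences was not tested.

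**Figure D4:**
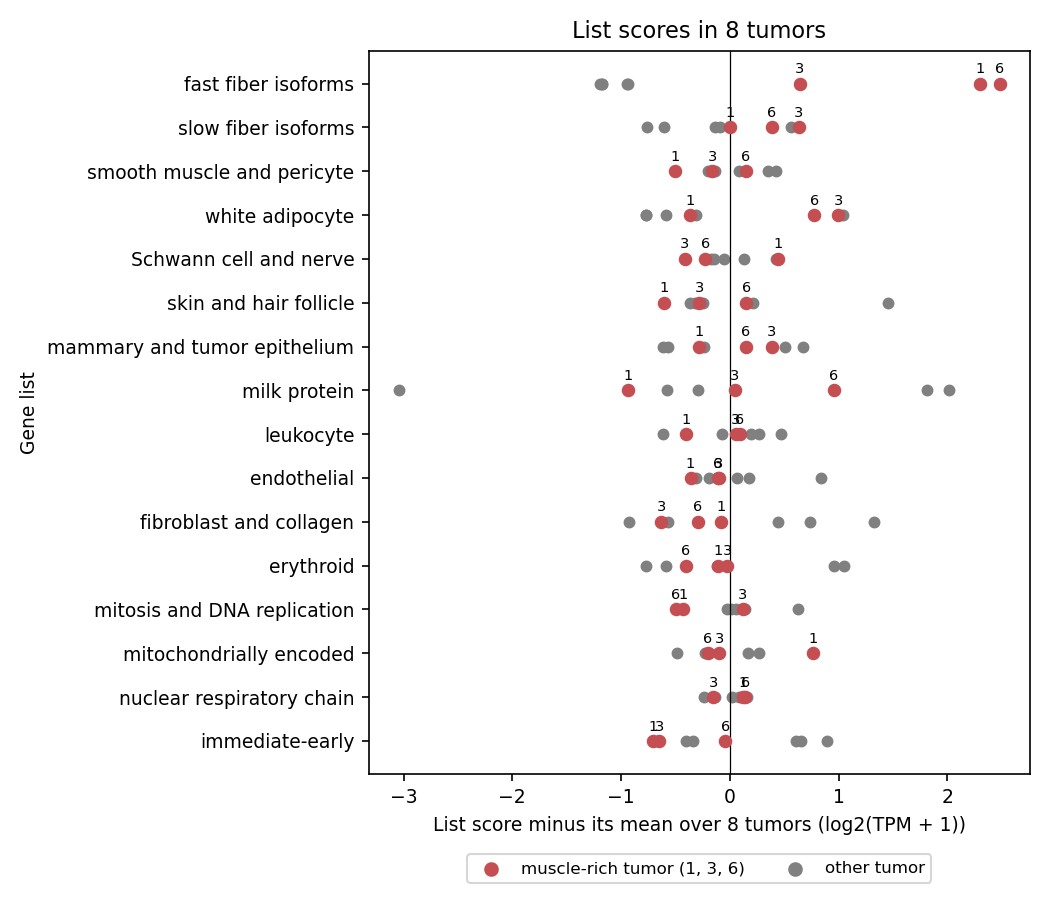
Score of each gene list in each tumor (mean log2(TPM + 1) of its tested members) minus the mean of the 8 tumors; red points with numbers are tumors 1, 3 and 6, gray points the other 5. The fast fiber list at the top, which holds 3 selecting genes, is the one plotted list that separates the 3 tumors. White adipocyte scores are high in tumors 3 and 6 (3.28 and 3.06 before centering) but not in tumor 1 (1.92). Tumor 5, outside the 3, has the highest (3.32).

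Outside the lists, 23 genes were called higher, 6 of them predicted genes, pseudogenes or without a symbol. Fam150b, which encodes a secreted ligand of the ALK and LTK receptors, was 20.1, 14.1 and 8.91 TPM in tumors 1, 3 and 6, and 0, 0, 4.69, 0.311 and 0.132 TPM in tumors 2, 4, 5, 7 and 8 (difference 3.26). Hlf, a circadian transcription factor, was 50.1, 38.9 and 31.8 TPM, against 7.69, 7.19, 22.7, 4.44 and 6.97 TPM (difference 2.11). Mgst2, a microsomal glutathione transferase, was 79.7, 66.1 and 71.96 TPM, against 0.217, 24.1, 50.05, 27.8 and 16.8 TPM (difference 2.27). In contrast to most sarcomere genes, tumor 3 lay close to tumor 1 or between tumors 1 and 6 for these genes, and tumor 5 came next after the muscle-rich tumors for each. Rgl3, an exchange factor for Ral, was 50.8, 16.96 and 22.1 TPM, against at most 12.1 TPM (difference 2.21).

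Several of the 10 largest differences among genes called lower rested on very uneven levels in the other 5 tumors. Ly6d, a surface antigen of epithelial and lymphoid cells, had the largest difference, -4.56. It was 0.536, 21.1 and 10.3 TPM in tumors 1, 3 and 6 and 235, 27.5, 311, 859.6 and 80.99 TPM in tumors 2, 4, 5, 7 and 8. Bpifb1, a secreted airway protein, was at most 0.149 TPM in the muscle-rich tumors, but its difference of -3.34 rested on tumor 4 with 1517 TPM and tumor 8 with 39.8 TPM. Spib, an ETS factor of B cells and M cells, was 362 TPM in tumor 7 and at most 2.94 TPM in any other tumor.

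Fas, a death receptor, was 4.0, 6.01 and 4.91 TPM in tumors 1, 3 and 6, against 12.5 to 113 TPM (difference -2.06). Thrsp, a regulator of lipid synthesis in liver, fat and mammary gland, was 2.9, 1.65 and 4.24 TPM, against 10.5 to 38.04 TPM (difference -2.29). Calml3, a calmodulin-like protein of epithelia, was 0.159, 1.4 and 0.841 TPM, against 1.5 to 40.7 TPM (difference -2.92). Atp6v0a4 (a proton pump subunit), Wif1 (a Wnt inhibitor), Irx4 (a homeobox factor) and Plb1 (a phospholipase) completed the 10 largest, with differences of -2.90, -2.10, -2.02 and -2.01. After quantile normalization Calml3 and Plb1 overlapped, and Plb1 also after median-of-ratios scaling.

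Genotype was not used to pick the tumors, so the muscle program could be tested against it. Control tumors had a marker score of 2.55 ± 2.397 and HMMR-Tg tumors one of 2.10 ± 2.46 (mean ± SD, n = 4 each), and the difference of -0.46 was far smaller than the spread (two-sided exact permutation test, p = 1). With 70 arrangements, the smallest p this design allows is 0.0286. The direction was not stable: without control tumor 1 the difference was 0.57, and without HMMR-Tg tumor 8 it was 0.00159. The summed fast isoforms differed by -0.17 on the log2 scale (exact permutation p = 0.943) and the share of the 9 lists by -0.06 in log2 percent (exact permutation p = 0.743). The share turned to 0.19 without tumor 1, 0.03 without tumor 5, 0.02 without tumor 7 and 0.10 without tumor 8.

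**Figure D5:**
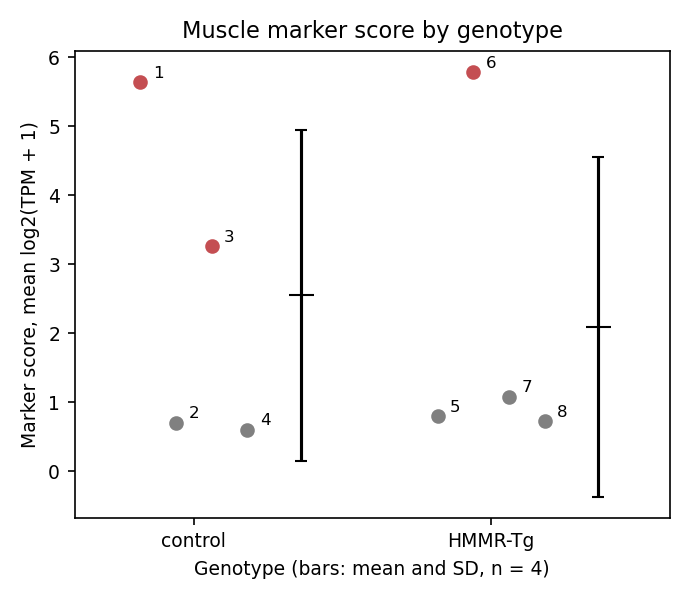
Marker score (mean log2(TPM + 1) of the 5 selecting genes) of each tumor by genotype, with the tumor number beside each point, red for tumors 1, 3 and 6, and the mean ± SD of 4 tumors as a bar. The genotype means of 2.55 and 2.10 lie close together, and the tumors of both genotypes overlap.

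In a limma fit of HMMR-Tg against control across all genes, 9 of 14835 passed an adjusted p of 0.05 (0.0607%), all higher in HMMR-Tg. None of the 79 tested skeletal muscle members was among them. At an unadjusted p under 0.05 there were 513 genes, of which 2 were muscle members: Fbxo32, a ubiquitin ligase of muscle atrophy, with a difference of -0.86 (SE 0.29, limma adjusted p = 1.00), and Cacnb1, a calcium channel subunit, with -1.36 (SE 0.60, limma adjusted p = 1.00). The called genes were Gm8420, Gm10020, Gm14094, Gm2974, Gm5292 and 4 identifiers without a symbol. Gm10020 was at most 1.51 TPM in the controls and 151 to 481 TPM in HMMR-Tg tumors, with 275 TPM in tumor 6.

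The genotype fit was repeated with the marker score in the model. With the score 8 genes passed (0.0539%), all of them among the 9, and Gm5292 was lost (limma adjusted p = 0.0715). Leaving out tumors 1, 3 and 6 altogether kept 3 of the 9, in a fit of 2 controls against 3 HMMR-Tg tumors. Leaving out a single tumor gave 6 to 10 calls without the score; with it, 3 were called without tumor 1, 2 or 6, 4 without tumor 3, 4 or 7, 5 without tumor 5 and 6 without tumor 8.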

How the data were processed

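RNA-seq was measured in 8 bulk mammary tumors, 4 controls and 4 HMMR-Tg, grouped by the titles of their labels. The deposited TPM values were computed by the authors and are not scaled between tumors. The methods of the study name TRIzol extraction, single-end reads, Kallisto and tximport, whereas the labels name an RNeasy kit and TruSeq libraries, and bedtools, SAMtools 0.1.18 and STAR 2.4.0f1 appear in the submitters' processing notes. All name mm9, and which route gave the table was not settled. This matters for paralogs such as myosins, among which a quantifier divides reads by estimation. TPM are not counts, so the count test of the study was not run.

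Symbols and coordinates came from GENCODE M1 (mm9), matched by Ensembl ID for 25388 of 35539 identifiers, and promoters from RefSeq (GRCm38.p6). Differences are of mean log2(TPM + 1), for genes averaging 1 TPM or more (14835, of which 13934 had a symbol). Of 366 listed genes, 363 were found. Genotypes were compared with limma 3.58.1 (R 4.3.3; empirical Bayes with a mean-variance trend, Benjamini-Hochberg over all genes tested, threshold 0.05) and scores with a two-sided exact permutation test. The limma step was tested on simulated data. No test was run between the 3 muscle-rich tumors and the other 5. The members, lists and rules were chosen with earlier results of these data known. Named genes were the selecting genes, members of the muscle lists, the 15 largest higher and 10 largest lower genes without overlap (IDs without a symbol, predicted genes and pseudogenes passed over), and of each other list the 4 members with the highest mean TPM and up to 2 without overlap. Genes called between genotypes and Hmmr were also named. Alternatives were other pseudocounts, filters, scalings and difference thresholds, a fit without the trend, a score over all muscle members, and leaving out each tumor. Other steps ran in Python 3.11.15 with numpy 2.4.6, pandas 2.3.3, matplotlib 3.10.9 and scipy 1.17.1.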

Additional observations from a re-analysis of the deposited data

Results flagged for a closer look

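In groups of 4 tumors of 1 genotype, 72 sets of scores, shares or gene values were examined for a tumor far from the others of its genotype, and in 15 a tumor stood apart by the gap to its nearest neighbor. Chance alone sets a tumor apart in about 1 in 20 groups, and these measures share genes. Most of these were tumor 6, the only muscle-rich tumor among the HMMR-Tg ones: its marker score was 5.78 (others 0.73 to 1.08), and its muscle list share was -2.79 in log2 percent (others -4.29 to -4.04). These and the selecting genes restate the choice of that tumor and are not to be set against the chance rate. In log2(TPM + 1), Ckm was 6.01, Acta1 6.96, Myh4 4.41 and Tnnt3 6.09 in that tumor, and its scores were 4.32 for thin filament genes, 3.20 for thick filament genes and 4.40 for fast fiber isoforms. Among controls, tumor 1 stood apart in the Z-disc score, at 2.54 (others 1.13 to 1.25), and tumor 3 in the sarcolemma and dystrophin score, at 2.26 (others 3.43 to 3.66). A further 4 concerned tumors outside the muscle-rich group. HMMR-Tg tumor 8 was high in the Schwann cell and nerve score, at 3.31, and low in the mitochondrially encoded score, at 11.38. Control tumor 2 was high in the skin and hair follicle score, at 3.07, and control tumor 4 was low in the erythroid score, at 4.10.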

How the results depend on the processing

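Without a filter, or with TPM rescaled without the muscle genes, the counts of genes higher and lower in the muscle-rich tumors stayed within 1.5 times of 46 and 58. A pseudocount of 5 gave 20 higher and 26 lower, and a pseudocount of 0.1 gave 88 lower. A mean of at least 5 TPM gave 22 higher. A difference of 0.5 gave 114 and 240, and of 2 gave 19 and 12. Quantile normalization gave 33 lower and median-of-ratios scaling 38. Leaving out each tumor gave 54 to 126 higher and 69 to 169 lower. Called muscle genes numbered 8 with a pseudocount of 5, 8 with a difference of 2, 5 with a mean of at least 5 TPM and 12 without tumor 6, against 19; 2, 1 and 1 were called lower without tumors 5, 6 and 7, against 0. The genotype difference in marker score reversed to 1.33 within the muscle-rich tumors and 0.21 within the others, groups that the score itself defined, so this says nothing about stability; it ranged from -1.68 to 0.57 when each tumor was left out; that of the muscle share ranged from -0.40 to 0.19. Genotype calls numbered 3 without tumors 1, 3 and 6. With the marker score in the model there were 4 with a pseudocount of 5, without a filter or with a mean of at least 5 TPM, and 3 to 6 when each tumor was left out; without the score, 6 to 10. The cause of these changes was not tested. With the score in the model, the fit with a pseudocount of 5 held the same 14835 genes as the main fit. The fit without a filter held more, 26969. No paired analysis was possible because tumor numbers are not shared between genotypes. Depth is unknown, which limits all values near 0 TPM.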
